A study of Mus musculus with 42 samples.

Results

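The Clca genes encode calcium-activated chloride channel regulators, and in the mouse they lie side by side on chromosome 3. Of the 19206 gene names found in any of the 12 deposited tables, 7 belong to this family, namely Clca1, Clca2, Clca3a1, Clca3a2, Clca3b, Clca4a and Clca4b. They were taken as the rows of those names, and the family was picked on its normalized counts of knockout or cytokine against control within each table. The contrasts of each knockout or cytokine with its control are therefore a description: each member has its fold change and standard error but no p-value. Nothing is read from the counts of members that passed a test. The share over all genes stands beside the main limma calls. Counts before adjustment, by edgeR or DESeq2 or at other settings stand without it, except where counts over all genes close the text. Clca2 had no row in the proximal GS4M2 table and in the 4 stromal tables, and Clca3a2 had none in the table of IL-17A at 72 h.

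The libraries were made from Muc2-mCherry+ goblet cells, from Rosa26-tdTomato+ stromal cells and from colonic organoids. All mice of the sorts carried Gli1-CreERT2, which recombines in Gli1+ stromal cells after tamoxifen, and sorting of proximal and distal colon cells took place on day 30. GS4 mice are Smad4 fl/fl and GA3 mice are Alk3 fl/fl (Alk3 is listed as Bmpr1a), so GS4M2 and GA3M2 carry the Muc2-mCherry reporter and GS4T and GA3T the tdTomato reporter, while the controls GWTM2 and GWTT carry Gli1-CreERT2 and the reporter without a floxed gene. In GS4M2 and GA3M2 mice the sorted goblet cells are thus not the cells in which Cre is driven. Each of these 12 groups has 2 libraries, from mice 2 to 4 months old. Organoids of the distal colon, wild type in every group by the labels, were cultured with 10 nM IL-1α and IL-1β (called IL-1 here), with 10 nM IL-17A or with neither, for 12 h or 72 h, with 3 libraries a group. The labels do not say whether replicates are separate animals or cultures, so each error describes the spread between these libraries, which may be technical.

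CLCA proteins are not channels themselves. They are secreted or membrane-anchored proteins with a metalloprotease domain that cleaves the protein itself, and CLCA1 is known to raise the current of the calcium-activated chloride channel Ano1. Clca1 is a goblet cell product and one of the abundant proteins of the colonic mucus layer. Clca4a and Clca4b are known from enterocytes and surface colonocytes, Clca2 from stratified epithelia and Clca3a1 also from lymphatic endothelium. Older literature numbers the mouse genes differently, and the names here are the symbols of the tables.

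All 7 genes lie on the minus strand of GRCm38 (mm10), within chr3:144729677-145099443, a span of 369767 bases that holds 8 genes with the pseudogene Clca4c-ps. In the order of the coordinates these are Clca3a1 (ENSMUSG00000056025, chr3:144729677-144760977), Clca3a2 (ENSMUSG00000028262, chr3:144796559-144819494), Clca3b (ENSMUSG00000037033, chr3:144822623-144849357), Clca4c-ps, Clca4b (ENSMUSG00000074195, chr3:144910921-144932529), Clca4a (ENSMUSG00000068547, chr3:144952480-144975045), Clca1 (ENSMUSG00000028255, chr3:145003817-145032776) and Clca2 (ENSMUSG00000036960, chr3:145070263-145099443). Clca3a2 and Clca3b are 3128 bases apart, and the other neighbours 12468 to 37486. The copies resemble each other in their transcripts. Of all stretches of 50 bases in the Clca4a transcript, 20.95% occur in the Clca4b transcript and 23.59% in that of Clca4c-ps, and 22.75% of those of Clca3a1 occur in Clca3a2. Clca3b shared 5.978% with the other family members, and Clca1 and Clca2 shared 0. The deposited counts rest on uniquely mapped reads, so the counts of the Clca4 pair and of the Clca3a pair come from the stretches that differ.

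The RefSeq promoter table (GRCm38.p6, 250 bases before to 50 bases after the start) matched 5 of the 7 genes, and Clca1 and Clca4a have no entry there. The promoter of Clca4b (chr3:144932480-144932779) is shown because this gene had the largest fold changes of the family, and that of Clca3a1 (chr3:144760928-144761227) because this gene was the member called between the stromal knockouts. Both are on the minus strand and are written 5′ to 3′, and capitals mark matches to the motifs named after them.
Clca4b: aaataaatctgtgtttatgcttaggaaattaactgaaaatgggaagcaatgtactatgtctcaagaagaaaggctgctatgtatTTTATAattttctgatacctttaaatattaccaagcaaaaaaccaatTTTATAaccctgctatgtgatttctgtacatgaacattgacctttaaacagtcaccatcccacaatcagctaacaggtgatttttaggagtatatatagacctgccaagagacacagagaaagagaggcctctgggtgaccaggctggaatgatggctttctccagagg
Clca3a1: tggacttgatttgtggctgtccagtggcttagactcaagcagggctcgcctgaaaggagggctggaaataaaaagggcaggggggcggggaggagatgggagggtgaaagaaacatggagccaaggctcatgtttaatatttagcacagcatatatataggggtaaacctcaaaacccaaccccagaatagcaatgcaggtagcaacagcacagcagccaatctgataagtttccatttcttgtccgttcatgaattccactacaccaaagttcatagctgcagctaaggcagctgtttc
Both strands were searched for the GATA motif AGATAA, the AP-1 motif TGANTCA, the C/EBP motif TTGCNNAAT, the NF-kB motif GGGANTTNC, the HNF4 motif CAAAGTC and the TATA box TATAAA. Clca4b held TATAAA on the reverse strand at −166 and −119, and 13.62% of 32851 promoters held it on either strand. The window of Clca3a1 held none of the 6 motifs. A match describes these letters only.

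The 12 goblet libraries held 15647603 to 20783127 reads, the 12 stromal libraries 14222902 to 23686940 and the 16 distinct organoid libraries 14815170 to 17665812. For the organoids, 2 of the 3 control columns of each time held the same reads as a column of the other time, so only 4 control libraries are distinct and the controls of all cytokine tables are shared. The 2 control libraries of a segment serve both knockouts in the same way. Some other organoid libraries were close to each other in their reads. Replicates 3 and 4 at 12 h had a chi-square per gene of 3.02 with IL-1 and 3.33 with IL-17A. Replicate 4 of the 12 h controls and replicate 2 of the 72 h controls had 3.30. Within sorted groups the lowest was 17.9. The labels do not say whether such libraries are repeats of 1 culture. Xist and Y-linked transcripts gave the sex of each library. In the goblet sort, replicate 1 of GWTM2 was female in both segments and the other 10 libraries were male, so sex and genotype are partly confounded. All GS4T libraries and both distal GWTT libraries were female. The epithelial markers (6 of 6 with reads) summed to 8506 to 13380 reads per 1000000 reads of the library (RPM) in goblet libraries and fibroblast markers to 0 to 22.4. In the stromal sort fibroblast markers summed to 40314 to 57234. Smad4 was 94.9 to 109 RPM in GWTT and 41.5 to 70.1 in GS4T cells, Bmpr1a was 166 to 189 in GWTT and 105 to 125 in GA3T cells, and Gli1 was 1.98 and 1.40 in the libraries of replicate 2 of proximal GA3T and GS4T, against 38.0 to 99.6 in the other stromal libraries.

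Levels of different genes can be compared only per length, so reads per kilobase of exon and 1000000 reads of the library (RPKM) were computed from the recovered reads. In the 4 GWTM2 goblet libraries Clca1 was far above the rest, with a median of 1566 RPKM (891 to 4696). The median was 141 RPKM for Clca3b, 18.2 for Clca4a (5.46 to 57.5), 3.78 for Clca4b (2.09 to 25.8), 2.58 for Clca3a2, 1.82 for Clca3a1 and 0.281 for Clca2. The ranges of Clca4a and Clca4b overlapped. Clca1 made up 87.4% to 94.8% of the RPKM of the family in these control libraries. In the 4 GA3M2 libraries this share was 8.54% to 49.4% and in the 4 GS4M2 libraries 59.4% to 83.9%.

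In the organoids Clca1 and Clca3b stood at similar levels, with medians over the 16 distinct libraries of 194 RPKM (105 to 629) and 175 RPKM (76.5 to 487). Clca4a followed with 44.9 RPKM and Clca4b with 9.84 RPKM (1.39 to 121), and the medians of Clca3a2, Clca3a1 and Clca2 were 2.77, 2.53 and 0.0510. In the GWTT stromal libraries Clca1 had a median of 12.4 RPKM (0.0810 to 18.4), Clca3b of 0.858, Clca4a of 0.208 and Clca4b of 0.0206. Clca1, the goblet cell gene, thus had the highest median of the family in these controls too.

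Goblet cells of the BMP receptor knockout held much less Clca1. Normalized counts of Clca1 were 60981 and 104695 in the proximal GWTM2 libraries and 5532 and 1643 in GA3M2, a log2 fold change of -4.73 ± 0.59 (SE, n = 2 and 2, on log2(normalized count + 1) here and for all fold changes below). Distal counts were 102568 and 309850.0 in GWTM2 and 19496 and 6969 in GA3M2, a log2 fold change of -3.93 ± 0.68. In both segments the groups did not overlap. In bulk libraries of sorted cells, fewer cells of a type and less RNA per cell cannot be told apart. The same controls stood against GS4M2 in tables normalized separately. There Clca1 was 57274 and 99031 in proximal GWTM2 and 20142 and 56306 in GS4M2, a log2 fold change of -1.16 ± 0.51, with the higher GS4M2 library just under the lower control. Distal values were 107214 and 321012 in GWTM2 and 68869 and 160158 in GS4M2 (-0.82 ± 0.67), and these groups overlapped.

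The Clca4 pair was higher in the goblet sorts of both knockouts. Clca4b was 266 and 145 normalized counts in proximal GWTM2 and 4833 and 5826 in GA3M2, a log2 fold change of 4.75 ± 0.31. Against GS4M2 in the proximal colon the values were 249.8 and 137 in controls and 1706 and 3347 in the knockout (3.68 ± 0.39). The knockout libraries of both lines were all above the controls. Distally the controls themselves differed widely, with 1312 and 109 in GWTM2 against 5601 and 5190.4 in GA3M2 (3.82 ± 1.09). In the distal GS4M2 table Clca4b was 1372 and 113 in controls and 1045 and 3303 in the knockout (2.23 ± 1.24), and the groups overlapped because the female control library was high.

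Clca4a was 297 and 1616 in proximal GWTM2 and 3170.4 and 5262 in GA3M2 (2.56 ± 0.75). Distal Clca4a was 341 and 3019 in GWTM2 and 3067 and 6813 in GA3M2 (2.17 ± 1.02). The GS4M2 values were 2688 and 3387 in the proximal colon against 279 and 1528 in controls (2.21 ± 0.71), and 4158 and 8000.1 in the distal colon against 356 and 3128 (2.45 ± 1.03). All knockout libraries were above both controls in all 4 tables, in distal GA3M2 by a narrow margin for 1 library, but the female control was the low one each time and every knockout library was male. With the male control alone, the log2 fold change of Clca4a was 1.34 in proximal and 0.60 in distal GA3M2 cells, and 0.98 and 0.88 in GS4M2 cells. The same values for Clca4b were 5.18 and 5.61 in GA3M2 and 4.11 and 4.03 in GS4M2, and those for Clca1 were -5.12 and -4.73 in GA3M2 and -1.56 and -1.61 in GS4M2.

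**Figure D1:**
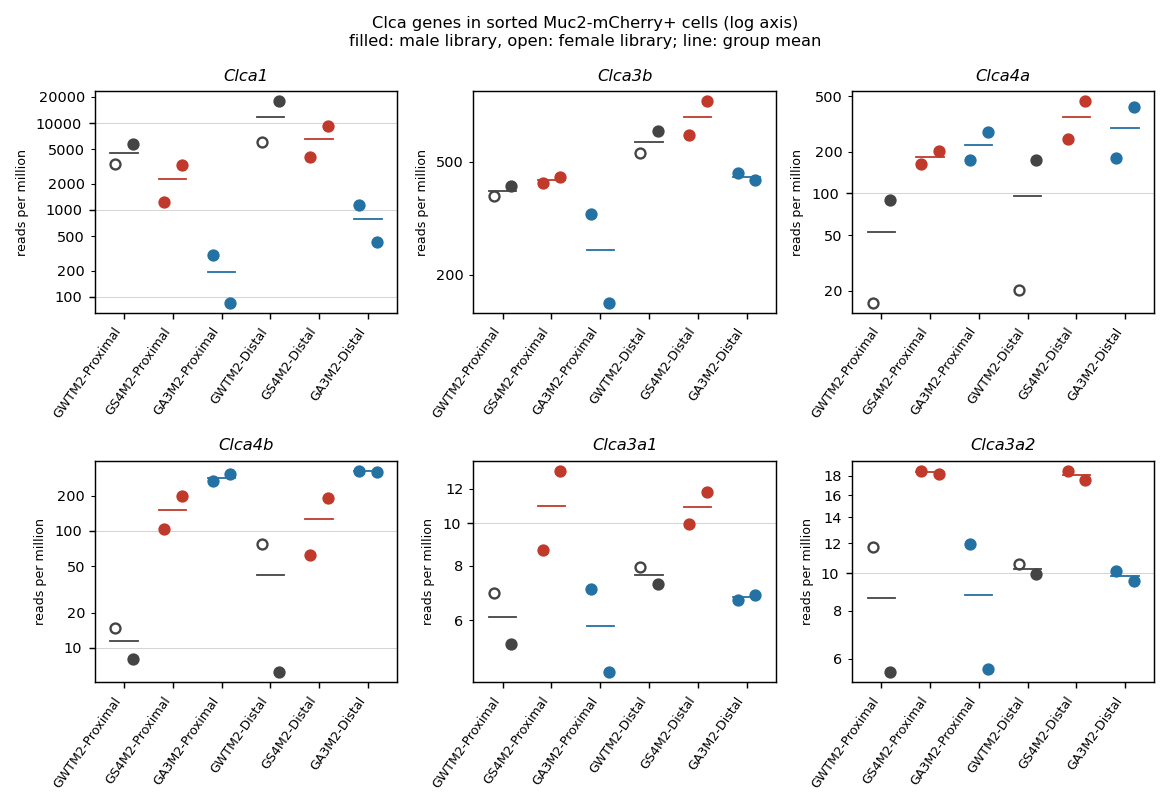
Library-scaled reads (RPM) on a log axis for the Clca genes in the 12 Muc2-mCherry+ goblet libraries, by group. Each point is 1 library (filled male, open female) and each line the mean of a group. Clca1 is lowest in the GA3M2 libraries, Clca4a is low in the 2 female GWTM2 libraries, and Clca4b is above 62.0 RPM in every knockout library.

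Clca3b and the Clca3a genes had smaller fold changes between these groups. Clca3b, the second most abundant member in goblet cells, was 6475 and 7043 in proximal GWTM2 and 6951 and 7489 in GS4M2 (0.10 ± 0.11), and its distal values of 9518 and 11638 against 10455 and 14248 overlapped (0.21 ± 0.20). In GA3M2 it was below both controls in each segment, with 6007 and 3061 against 6894 and 7446 in the proximal colon (-0.74 ± 0.33) and 7839 and 7064 against 9105 and 11233 in the distal colon (-0.44 ± 0.17). Clca3a2 was above both controls in GS4M2, with 305 and 307 against 199 and 94.99 in the proximal (1.15 ± 0.34) and 311 and 306 against 188 and 180.0 in the distal colon (0.74 ± 0.17). In GA3M2 it was 217 and 108 against 212 and 100.4 (0.07 ± 0.48) and 174 and 156 against 179.5 and 174 (-0.10 ± 0.22). Clca3a1 was above both controls in GS4M2, with 143 and 223 against 118 and 90.7 in proximal (0.78 ± 0.28) and 168 and 205 against 140.5 and 131 in distal cells (0.45 ± 0.22). Its GA3M2 values were 129 and 87.6 against 125 and 95.9 (-0.04 ± 0.33), which overlap, and 115 and 112 against 134 and 127 (-0.20 ± 0.24), both lower.

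Clca2 was low throughout, and its fold changes in GA3M2 rest on few reads. Its distal values were 34.6 and 64.5 in GWTM2 and 1.96 and 0 in GA3M2 (-4.81 ± 0.85), which is 36 and 59 reads against 2 and 0, a ratio of 0.0205 (exact 95% counting interval 0.00244 to 0.0759). The proximal values were 10.1 and 10.3 against 3.02 and 0.922 in GA3M2 (-2.01 ± 0.76), with a mean below the filter. Distal GS4M2 cells had 16.1 and 42.3 against 36.1 and 66.8 (-0.88 ± 0.60), which overlap.

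Limma was run over all genes of a table, and a call needed a p under 0.05 after Benjamini-Hochberg adjustment together with a log2 fold change of 1 or more in either direction. Since the family was picked on these contrasts, nothing is read from the counts of members called. Those of limma after adjustment are set beside the share over all genes, and counts before adjustment or by edgeR and DESeq2 are not. In proximal GS4M2 cells 1 of 6 members tested was called, Clca4b, against 0.325% of all genes, and in proximal GA3M2 cells it was again Clca4b, 1 of 6, against 0.0899%. In the distal colon limma called 0 of 7 members in GS4M2 (0% of all genes) and 0 of 7 in GA3M2 (0%). Past that fold at p under 0.05 before adjustment, limma gave 0 and 3 members, edgeR called 0 and 0, and DESeq2 0 and 2. All knockout libraries were above both controls for 4, 3, 2 and 2 members in the proximal GS4M2, distal GS4M2, proximal GA3M2 and distal GA3M2 tables, where 22.1% to 26.0% of all genes were. They were below both controls for 1, 0, 2 and 4 members in the same order, against 22.2% to 26.1% of all genes.

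Within a library the ratio of Clca1 to Muc2 reads sets the mucus protein against the main mucin of the same cells. It is a ratio of reads not corrected for length and serves only to compare libraries. It was 0.340 and 0.467 in proximal GWTM2, 0.0501 and 0.158 in GS4M2, and 0.295 and 0.117 in GA3M2. In the distal colon it was 2.49 and 2.83 in GWTM2, 0.289 and 0.823 in GS4M2, and 1.22 and 0.567 in GA3M2. Both knockouts were thus below both controls in each segment, and distal controls were above proximal ones. The parts of the ratio differed between lines. Muc2 was 11164 to 24426 RPM in the 4 GS4M2 libraries, 733 to 1027 in the 4 GA3M2 libraries and 2429 to 12374 in the controls. Clca4a per Clca4b reads was 1.12 and 0.260 in the female and 11.1 and 27.6 in the male control libraries. In the 8 knockout libraries, all male, it was 0.548 to 3.98, below both male controls.

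**Figure D2:**
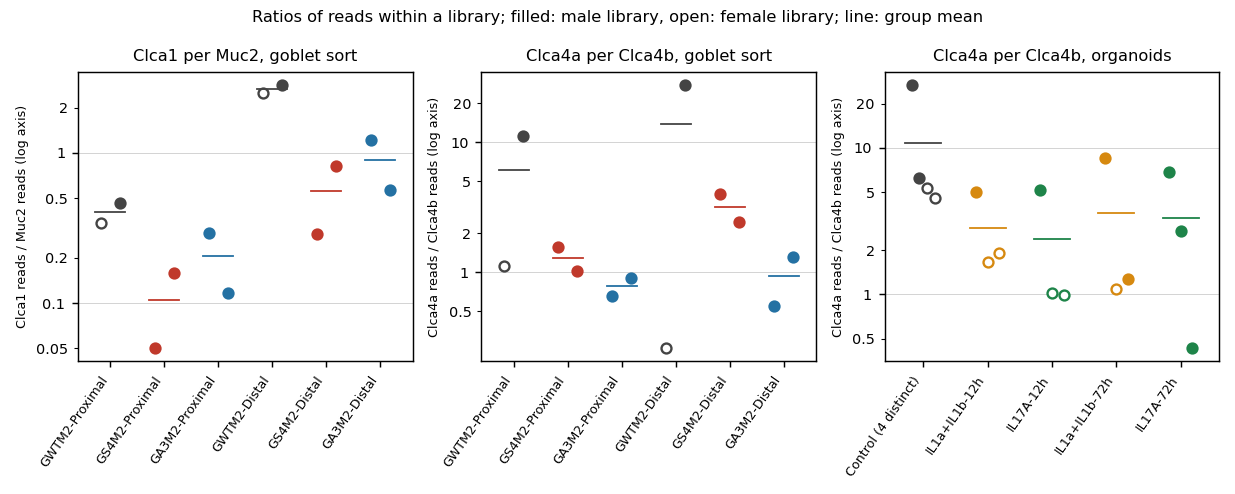
Read ratios per library on a log axis, Clca1 per Muc2 and Clca4a per Clca4b, by group (filled male, open female). Clca1 per Muc2 is lower in the knockout goblet libraries than in the controls of the same segment, and Clca4a per Clca4b is highest in the 2 male goblet controls and in 1 male organoid control.

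The rest of the mucus and surface programme was counted from lists of markers. Of 20 goblet cell markers tested, limma called 0 in 3 of the goblet tables and 1, Muc2, lower in proximal GA3M2 cells. Their median log2 fold changes were -0.11 and -0.27 in proximal and distal GS4M2 and -0.51 and -0.55 in GA3M2. Of the surface colonocyte markers 0 were called in the 4 goblet tables, and the medians were -0.24, 0.05, 0.47 and 0.14 in the same order. Of the 16 genes in the list of chloride and anion transport, which also holds the potassium channels Kcnq1 and Kcnn4, 0 were called. Its medians were -0.26, -0.20, 0.01 and 0.03. The mucus layer list had 1 call in proximal GS4M2, Tgm2 higher, and 1 in proximal GA3M2, Muc2 lower.

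Between the knockouts the contrast was not used to pick the family, although the same libraries entered the contrasts that were. All 12 goblet libraries were fitted together by limma on log2(RPM + 1) with TMM scaling. In the proximal colon Clca1 was lower in GA3M2 than in GS4M2 by a log2 difference of -3.54 ± 0.79 (adjusted p = 0.0605), from means of 194 and 2278 RPM (means are given before TMM scaling). In the distal colon it was -3.10 ± 0.79 (adjusted p = 0.107), from means of 780.1 and 6639. In both segments the GA3M2 libraries were all below the GS4M2 libraries, and neither difference passed the threshold. Clca4b was 1.07 ± 0.89 (adjusted p = 0.466) and 1.59 ± 0.89 (adjusted p = 0.452) higher in GA3M2. Clca4a differed by 0.36 ± 0.95 and -0.27 ± 0.95 (adjusted p = 0.829 and 0.937), and Clca3b by -0.82 ± 0.27 and -0.65 ± 0.27 (adjusted p = 0.115 and 0.315). Limma called 0 of 6 members in each segment, against 0.571% (proximal) and 0.664% (distal) of all genes. Past that fold at p under 0.05 before adjustment, 1 member was counted in each, Clca1, without a share over all genes to set it against, and edgeR called 0.

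Between segments of the GWTM2 controls limma called 0 of 6 members, against 1.71% of all genes, with 0 past that fold at p under 0.05 before adjustment and 0 by edgeR. Clca1 was lower in the proximal colon by a log2 difference of -1.27 ± 0.79 (adjusted p = 0.601), from means of 4571 and 11895 RPM. Clca3b gave -0.60 ± 0.27 (adjusted p = 0.394), Clca4b -1.04 ± 0.89 (adjusted p = 0.739) and Clca4a -0.65 ± 0.95 (adjusted p = 0.875).

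In the stromal sort Clca4b was close to absent in controls and abundant in both knockouts. In the proximal colon it was 0 and 2.05 normalized counts in GWTT and 1735 and 1664 in GS4T, a log2 fold change of 9.93 ± 0.60. By summed reads, 3550 against 2, the ratio of rates was 1659 (95% exact counting interval 459 to 13706). Against the same controls GA3T held 164 and 649 (7.53 ± 0.95), a ratio of 395 (109 to 3268) from 949 and 2 reads. Distal values were 0 and 4.84 in GWTT and 875 and 2516 in GS4T (9.26 ± 0.93), and 0 and 5.51 against 435 and 626 in GA3T (7.68 ± 0.94). The intervals cover counting error only. In all 4 tables both knockout libraries were above both controls.

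Clca4a and Clca3b followed the same order. Clca4a was 1.03 and 57.4 in proximal GWTT and 1009 and 656 in GS4T (6.22 ± 1.54), and 4.89 and 15.5 in distal GWTT and 376 and 748 in GS4T (5.75 ± 0.60). In GA3T it was 478 and 617 against 1.09 and 60.3 in the proximal (5.59 ± 1.58) and 537 and 133 against 5.58 and 17.6 in the distal colon (4.60 ± 0.84). Clca3b was 5.17 and 50.2 in proximal GWTT and 846 and 1399 in GS4T (5.94 ± 1.00), and 45.0 and 71.6 in distal GWTT and 1194 and 2027 in GS4T (4.75 ± 0.33). In GA3T it was 207 and 607 against 5.44 and 52.8 in the proximal (4.26 ± 1.13) and 511 and 708 against 51.3 and 81.5 in the distal colon (3.20 ± 0.31). For both genes the knockout libraries were above both controls in all 4 tables.

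The goblet cell gene Clca1 did not follow them. In distal GS4T cells it was lower, 70.0 and 141 against 636 and 1127 in GWTT (-3.08 ± 0.41), without overlap. In proximal GWTT it was 5.17 and 912, so that 1 control library was below and 1 above the 80.2 and 46.8 of GS4T (-0.27 ± 2.28). In GA3T Clca1 was 274 and 278 against 5.44 and 959 in the proximal (1.82 ± 2.31) and 2207 and 201 against 725 and 1282 in the distal colon (-0.53 ± 1.10), overlapping the controls. Clca3a1 was higher in GS4T without overlap, 61.8 and 69.8 against 5.17 and 5.12 in the proximal (3.44 ± 0.50) and 195 and 357 against 27.4 and 5.81 in the distal colon (4.25 ± 0.73). In GA3T it was 3.01 and 31.4 against 5.44 and 5.39 (0.83 ± 1.19) and 24.8 and 19.1 against 31.2 and 6.61 (0.54 ± 0.84), overlapping the controls in both segments. Clca3a2 was 24.8 and 34.1 in distal GS4T against 48.9 and 12.6 in GWTT (0.21 ± 0.72), and in the proximal colon it was above both controls, 27.7 and 52.8 against 0 and 18.4 (3.16 ± 1.48). In GA3T it overlapped in the proximal colon, 6.01 and 18.2 against 0 and 19.4 (1.36 ± 1.64), and was below both controls in the distal colon, 11.3 and 12.8 against 55.8 and 14.3 (-1.18 ± 0.78).

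**Figure D3:**
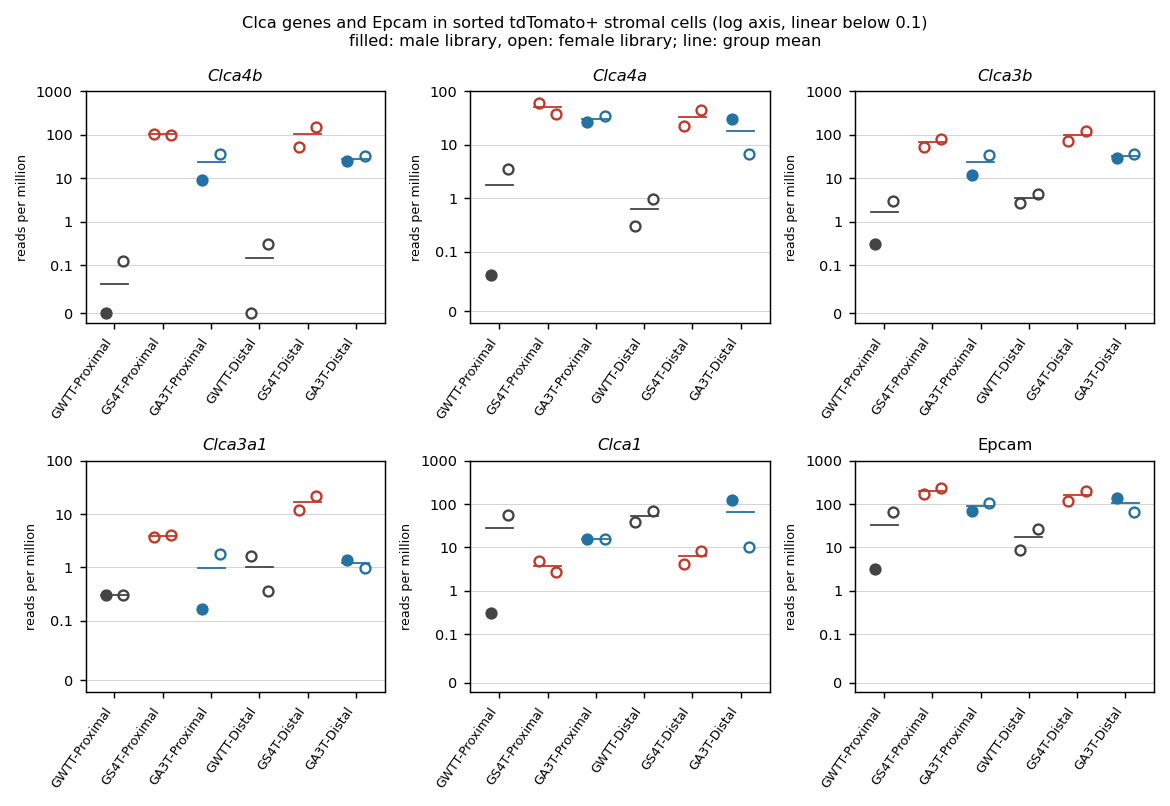
RPM for the Clca genes in the 12 tdTomato+ stromal libraries, on a log axis that is linear below 0.1 (filled male, open female, line at the group mean). Clca4b, Clca4a and Clca3b are higher in all knockout libraries than in the controls of the segment, and Clca1 is lowest in GS4T apart from 1 proximal control.

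Epithelial transcripts were also higher in most knockout libraries of the stromal sort, though the proximal GA3T libraries overlapped the controls. The epithelial markers (6 of 6 with reads in every library) summed to 13.1 to 496 RPM in GWTT, 431 to 1009 in GA3T and 684 to 1578 in GS4T. Their median log2 fold changes were 4.16 in proximal and 3.35 in distal GS4T, with 1 and 6 of 6 called, and 3.01 and 2.77 in GA3T with 0 called. Macrophage markers summed to 99.2 to 333 in GWTT, 382 to 602 in GA3T and 361 to 996 in GS4T, with 5 of 6 called higher in proximal and 3 of 6 in distal GS4T. Smooth muscle markers summed to 329 to 1014 in GWTT, 725 to 1148 in GA3T and 934 to 1592 in GS4T, where limma called Acta2 and Actg2 higher in proximal cells, and Actg2 higher and Myh11 lower in distal cells. Of 6 fibroblast markers, Lum was called lower in proximal and Dcn and Lum lower in distal GS4T, with 0 called higher. Their median log2 fold changes were 0.47 and 0.30. The part of all these markers in the values of the Clca genes was not tested. Reads of Clca4b per read of Epcam were 0.133 to 0.749 in the 8 stromal knockout libraries, 0 to 0.0115 in GWTT and 0.0386 to 0.142 in the 8 goblet knockout libraries. Replicate 2 of proximal GWTT and replicate 1 of proximal GA3T had epithelial sums of 496 and 488 RPM. Their Clca4b per Epcam was 0.00193 and 0.133. The first library is female and the second male, and the proximal controls hold 2 reads of Clca4b in all. Nothing is read from this pair. Clca1 per Epcam was 0.0120 to 0.879 in the stromal knockouts and 0.0980 to 4.33 in GWTT. Clca3a1 per Epcam was 0.103 and 0.106 in distal GS4T and 0.187 and 0.0138 in distal GWTT, so 1 control was above both. In the proximal colon it was 0.0228 and 0.0178 in GS4T and 0.0980 and 0.00483 in GWTT. The goblet libraries had 0.00149 to 0.00683. The markers of blood and lymphatic endothelium, 6 of 6 with reads, summed to 23.8 to 54.7 in GWTT, 26.9 to 54.0 in GA3T and 37.9 to 149 in GS4T, and limma called 2 of them, Cdh5 and Lyve1, higher in proximal and 0 in distal GS4T. Of 19 goblet cell markers tested in proximal GS4T cells 4 were called higher, and of 20 in distal GS4T 7 were called higher and 1, Ang4, lower. Over all genes, 9.61% were called in proximal and 14.0% in distal GS4T in either direction, the share to set beside each list in this paragraph. The surface colonocyte list had 0 of 19 and 5 of 18 called higher, among them Krt20 and Lypd8, in the same tables. The transport list had 0 of 16 calls in proximal GS4T. In distal GS4T Ano9 and the potassium channel Kcnq1 were called higher and the potassium channel Kcnn4 lower.

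In proximal GS4T limma called 3 of 6 members, Clca3a1, Clca3b and Clca4b, all higher, against 9.61% of all genes. In distal GS4T it called 5 of 6, with Clca3a1, Clca3b, Clca4a and Clca4b higher and Clca1 lower, against 14.0%. In GA3T it called 0 of 6 in the proximal (0.358% of all genes) and 0 of 6 in the distal colon (0%). There 3 and 3 members were past that fold at p under 0.05 before adjustment, edgeR called 0 and 0, and DESeq2 1 and 3, without a share over all genes. All knockout libraries were above both controls for 5, 4, 3 and 3 members in proximal GS4T, distal GS4T, proximal GA3T and distal GA3T, where 27.5% to 34.4% of all genes were. They were below both controls for 0, 1, 0 and 1 members in the same order, against 26.8% to 33.1% of all genes.

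The stromal knockouts were compared with each other in a joint fit of the 12 stromal libraries, a contrast not used to pick the family, though its libraries were. In the distal colon Clca3a1 was lower in GA3T than in GS4T by a log2 difference of -2.99 ± 0.45 (adjusted p = 0.0146), the 1 member of 6 that limma called, against 2.36% of all genes. By edgeR the difference was -3.83 (adjusted p = 0.0597). Without replicate 2 of distal GS4T it was -2.57 (adjusted p = 0.0712) and without replicate 1 of distal GA3T -3.08 (adjusted p = 0.0589). Clca4b was lower in GA3T by -1.67 ± 0.59 (adjusted p = 0.154) and Clca3b by -1.53 ± 0.59 (adjusted p = 0.187). Clca1 was 2.39 ± 1.51 higher (adjusted p = 0.425). In the proximal colon Clca4b differed by -2.37 ± 0.59 (adjusted p = 0.192), Clca3b by -1.63 ± 0.59 (adjusted p = 0.366) and Clca3a1 by -1.45 ± 0.45 (adjusted p = 0.2998), and limma called 0 of 6 members, against 0.0921% of all genes. Past that fold at p under 0.05 before adjustment, 3 members were counted, without a share over all genes to set them against, and edgeR called 0. Between segments of the GWTT controls limma called 0 of 6 members (1.48% of all genes), with 0 past that fold at p under 0.05 before adjustment and 0 by edgeR. Clca1 was lower in the proximal colon by -2.62 ± 1.51 (adjusted p = 0.470) and Clca4b differed by -0.10 (adjusted p = 0.964).

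In organoids treated for 12 h the 3 Clca3 genes and Clca4b were higher with either cytokine. Clca3b was 4287, 9159 and 7012 normalized counts in controls and 13055, 18031 and 19194 with IL-1, a log2 fold change of 1.35 ± 0.29 (SE, n = 3 and 3). With IL-17A it was 11798, 19258 and 20520.5 against 4501, 9598 and 7342 (1.29 ± 0.32). Neither cytokine group overlapped the controls. Clca3a2 gave 76.8, 163 and 142 in controls and 255, 379 and 383 with IL-1 (1.45 ± 0.32), and 211, 353 and 356 with IL-17A against 80.7, 171 and 149 (1.22 ± 0.34). Clca3a1 gave 59.0, 157 and 77.8 in controls and 234, 198 and 213 with IL-1 (1.25 ± 0.35), and 176, 261 and 288 with IL-17A against 62.0, 165 and 81.4 (1.32 ± 0.39). The 3 genes thus had fold changes within 1 SE of each other.

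Clca4b at 12 h was 67.5, 383 and 120.2 in controls and 412, 503 and 504 with IL-1 (1.68 ± 0.57). With IL-17A it was 492, 702 and 786 against 70.8, 401 and 126 (2.07 ± 0.59). Both groups were above all controls. Clca1 differed little, with 9845, 6309.9 and 11361 in controls and 9412, 13037 and 13141 with IL-1 (0.40 ± 0.24), and 9461, 12353 and 15004 with IL-17A against 10335, 6612 and 11896 (0.37 ± 0.26). Clca4a overlapped as well. It was 2055, 830.3 and 966 with IL-1 against 1809.6, 2381 and 639.9 (-0.25 ± 0.54), and 2537, 716 and 785 with IL-17A against 1899.8, 2495 and 670.1 (-0.39 ± 0.64). Its levels went with the sex of the library, with 112 to 149 RPM in the 4 male libraries of the controls and 12 h cultures and 38.7 to 59.5 in the 6 female ones. In each treated group of 12 h, replicate 1 was male and the others female, so sex and culture cannot be told apart.

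At 72 h the means of the Clca4 pair were higher with either cytokine and the Clca3 genes overlapped the controls. Clca4b was 363, 129 and 115 in controls and 332, 2433 and 2712 with IL-1 (2.88 ± 0.81), the first of these 3 libraries falling within the controls. With IL-17A it was 414, 1616 and 7476 against 362, 128 and 115 (3.28 ± 1.00), above all controls. Clca4a was 2257, 583 and 614 in controls and 2817, 2671 and 3441 with IL-1 (1.67 ± 0.48), where 2671 is the value of the female library. With IL-17A it was 2820.1, 4386 and 3218 against 2253, 579.7 and 613 (1.88 ± 0.52). Both groups were above all controls, of which the male one was the highest. With sex as a term in the fit, chosen after the data were seen, the log2 fold change of Clca4a was 1.31 with IL-1 and 0.60 with IL-17A.

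Clca1 at 72 h was 5982, 11277 and 10899 in controls and 9491, 36412 and 45404 with IL-1 (1.47 ± 0.57). With IL-17A it was 8506, 6602 and 48963 against 5969.7, 11213 and 10877 (0.64 ± 0.73), so a single library was high. Replicate 2 of IL-17A at 72 h stood apart in the other direction for Clca3b, with 25652 normalized counts against 5097 and 8424 in the other replicates and 8665, 6212 and 6713 in controls (0.54 ± 0.55, and -0.12 ± 0.26 without it). Its Muc2 level was 5689 RPM, against 548 and 1643 in the other replicates of the group. With IL-1 Clca3b was 5432, 10163 and 4964 against 8683, 6248 and 6727 (-0.14 ± 0.28). Clca3a1 was 45.7, 166 and 40.6 with IL-1 against 149, 70.5 and 74.6 (-0.44 ± 0.58), and 52.6, 339 and 40.3 with IL-17A against 149, 70.1 and 74.5 (-0.03 ± 0.80). Clca3a2 was 78.3, 185 and 62.5 with IL-1 against 154, 85.7 and 137 (-0.33 ± 0.45). Each of these overlapped the controls. Clca2 had 0 to 14 reads in any organoid library and was below the filter.

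**Figure D4:**
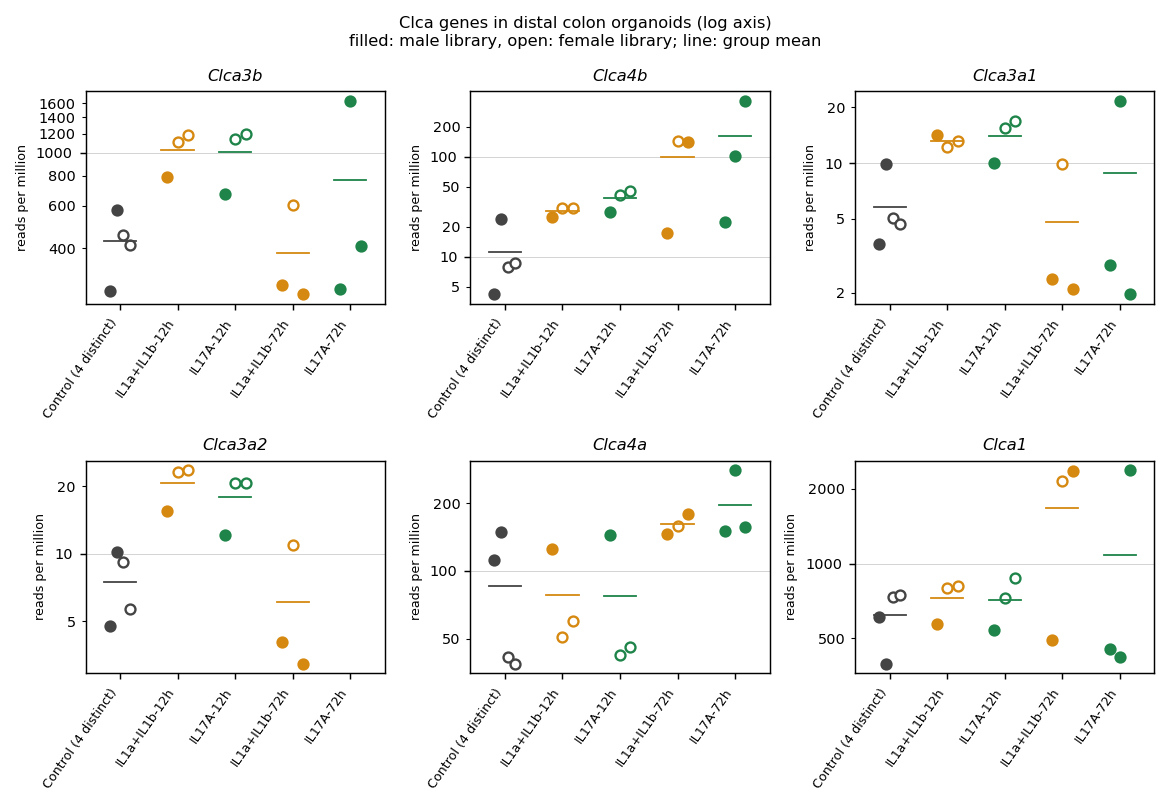
RPM on a log axis for the Clca genes in organoids by treatment and time (filled male, open female, line at the group mean). At 12 h Clca3b and Clca4b are higher with either cytokine, and at 72 h Clca4a and Clca4b are.

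Limma called 0 of 6 members at 12 h with IL-1 (0.0542% of all genes) and 0 of 6 with IL-17A (0.0385%). With the replicate number as a block it called 4 in each, and counts over all genes with the block close the text. Same-numbered libraries deviated together at 12 h (r = 0.628 to 0.650), but the labels do not say what a number marks. Without the block, limma counted 4 members in each past that fold at p under 0.05 before adjustment, edgeR called 0 and 0, and DESeq2 2 and 1. Here and at 72 h such counts stand without a share over all genes, and nothing is read from them. At 72 h limma called 2 of 6 with IL-1, Clca4a and Clca4b, against 23.0% of all genes. With IL-17A at 72 h it called 0 of 5 (7.94% of all genes), with 2 past that fold at p under 0.05 before adjustment, 0 by edgeR and 2 by DESeq2. The 2 calls with IL-1 were lost without replicate 2 or 4 of the controls and without replicate 2 or 3 of IL-1. All treated libraries were above all controls for 4 members in each 12 h table, where 5.30% and 5.91% of all genes were, and for 1 and 2 members at 72 h, where 27.0% and 21.7% were.

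Some surface colonocyte markers were called higher in the same 72 h cultures. With IL-1 these were 8 of 20 (23.0% of all genes were called in either direction), among them Aqp8, Car4, Slc26a3 and Krt20, and 0 lower, and their median log2 fold change was 1.41. With IL-17A 3 of 20 were called higher (7.94% of all genes either way), Ceacam1, Ceacam20 and Lypd8, and the median was 0.80. At 12 h 0 of 19 were called with either cytokine, with medians of -0.08 and -0.40. Of 20 goblet cell markers at 72 h, limma called 3 lower with IL-1, Retnlb, Ang4 and Reg4, and 1 lower with IL-17A, Rep15. The medians were -0.56 and -0.54. In the list of chloride and anion transport, IL-1 at 72 h gave 4 calls higher, the calcium-activated chloride channels Ano1 and Best2, the channel Clcn2 and the exchanger Slc26a3. It gave 3 lower, the chloride channel Cftr, the cotransporter Slc12a2 and the exchanger Slc26a6. The median over this list was 0.03. Epithelial markers summed to 8688 to 10178 RPM in controls and 9233 to 15164 in treated cultures.

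IL-17A was compared with IL-1 at the same concentration and time in a joint fit of the 16 distinct organoid libraries. At 12 h limma called 0 of 5 members (0% of all genes), with 0 past that fold at p under 0.05 before adjustment and 0 by edgeR. The log2 differences were -0.03 for Clca1, -0.05 for Clca3b, -0.13 for Clca4a, 0.07 ± 0.59 for Clca3a1 and 0.38 ± 0.89 for Clca4b (adjusted p = 0.9998 each). With the replicate number as a block, taken to pair these cultures, the difference in Clca4b had an adjusted p of 0.000306 in limma (0.38 ± 0.07), below the fold a call needs, and the other 4 members had adjusted p-values from 0.297 to 0.836. Replicates 3 and 4 were close to each other in both groups, so the pairs may not be independent and this p may be too small. At 72 h it also called 0 of 5 (0%), again with 0 past that fold at p under 0.05 before adjustment and 0 by edgeR. The differences were -0.84 ± 0.64 for Clca1, 0.66 ± 0.47 for Clca3b, 0.36 ± 0.59 for Clca3a1, 0.20 for Clca4a and 0.39 for Clca4b (adjusted p = 0.9995 each), and with the block the adjusted p-values were 0.786 to 0.795. Replicate 2 at 72 h was female with IL-1 and male with IL-17A, so these libraries are not a pair from 1 animal.

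Clca1 per Muc2 in the organoids was 0.129 to 0.281 in the 4 distinct controls and 0.1801 to 0.240 in the 6 cultures treated for 12 h. At 72 h it was 0.978, 0.779 and 1.43 with IL-1 and 0.828, 0.0741 and 1.45 with IL-17A, so 5 of 6 treated cultures were above all controls and replicate 2 of IL-17A was below them. Clca4a per Clca4b was 4.53 to 26.8 in the controls of both times. With IL-1 it was 4.99, 1.65 and 1.92 at 12 h and 8.48, 1.10 and 1.27 at 72 h. With IL-17A it was 5.15, 1.02 and 0.999 at 12 h and 6.81, 2.71 and 0.430 at 72 h. At both times the first of the 3 libraries, male, was within the controls, and the other treated libraries were below all of them.

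Across the 12 tables Clca4b had log2 fold changes of 2.23 to 4.75 in the goblet sort, 7.53 to 9.93 in the stromal sort and 1.68 to 3.28 in the organoids. The tables of a segment or of a time share their control libraries. Clca4a gave 2.17 to 2.56, 4.60 to 6.22 and -0.39 to 1.88 in the same order. Clca3b was between -0.74 and 0.21 in the goblet sort, 3.20 to 5.94 in the stromal sort and between -0.14 and 1.35 in organoids. Clca1 was negative in all 4 goblet tables (-4.73 to -0.82) and positive in all 4 organoid tables (0.37 to 1.47).

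**Figure D5:**
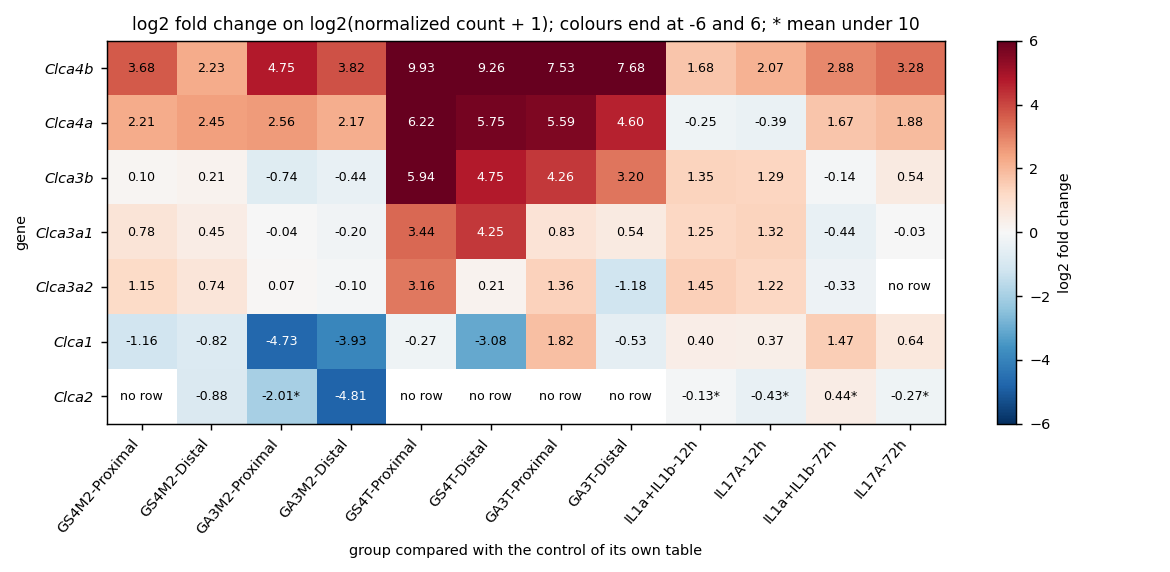
Log2 fold change of each Clca gene in each of the 12 tables on log2(normalized count + 1), with a star where the mean normalized count was under 10. Clca4b is positive in all 12 tables, Clca1 is negative in the 4 goblet tables, and blank cells are genes without a row.

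Genes whose pattern was most like that of a member were ranked by Pearson's r of log2(RPM + 1), given as a description. The libraries of a correlation share controls, reporter lines and sex. Over the 12 goblet libraries and 9283 genes, Clca1 was most like Kmt5a (r = 0.959), Mroh2a (0.951) and Klf9 (0.947). Clca4a was most like Cstf2t (0.930), the Y-linked Eif2s3y (0.916) and Ly6m (0.895). Clca4b was most like Trim15 (0.970), Pitpna (0.970) and Trim40 (0.937). Over the 16 organoid libraries and 8999 genes, the 3 genes most like Clca1 were Gde1 (0.963), Apoc2 (0.954) and Tmem43 (0.941), those most like Clca4a were Nol4l (0.970), Mid1ip1 (0.959) and Fam162a (0.9504), and those most like Clca4b were Ankrd50 (0.933), Ifngr2 (0.931) and Tnfaip2 (0.923). Among the members, r over the goblet libraries was 0.910 for Clca3a1 with Clca3a2, 0.836 for Clca1 with Clca3b, 0.506 for Clca4a with Clca4b and -0.673 for Clca1 with Clca4b. In the organoids Clca1 with Clca4b had an r of 0.656, Clca3a1 with Clca3b 0.938 and Clca4a with Clca4b 0.453.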

How the data were processed

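RNA sequencing libraries of sorted goblet cells, sorted stromal cells and colonic organoids, 42 in 12 tables, were grouped by the sample labels. The authors mapped reads uniquely to mm10 with STAR 2.5.3 and deposited a normalized signal, gene counts divided by DESeq2 1.28.1 size factors within each table. The counter, annotation and strand setting are not given in the sources used here. Every value was a whole multiple of a step of 0.752 to 1.26 (100% within 0.1), so whole reads were recovered. The 4 nameless rows in each GS4M2 table, 20.9% to 28.2% of the values, were left out, and 17 to 21 date-changed names per table were kept unnamed. In the proximal GS4M2 table the deposited column names and the study's supplementary headings assign the groups in opposite ways. The deposited names were used, under which its GWTM2 columns hold the same reads as the GWTM2 columns of the proximal GA3M2 table.

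The members and all lists were chosen with earlier results of these data known. All members with a row are named in the comparisons within a table, with values per library for those with a mean of at least 10 there. The contrasts across tables give only some members. Other genes are named only as lists or as the 3 genes of highest r with Clca1, Clca4a and Clca4b. Lists covered goblet cell, surface colonocyte, chloride and anion transport, mucus layer and cell type markers. Each table was fitted alone with limma 3.58.1 (trend) on log2(value + 1), over genes with a mean of at least 10, and genes were called at p under 0.05 after Benjamini-Hochberg adjustment with a log2 fold change of 1 or more either way. Contrasts across tables used recovered reads in 1 fit per sort and 1 for organoids. Alternatives were other pseudocounts, filters and scalings, edgeR 4.0.16, DESeq2 1.42.0, the replicate number as a block and each library left out, and, chosen after seeing the data, sex as a block. In simulations of the comparisons with 200 changed genes, 78.5% to 100% of those changed by at least 2 on the log2 scale were called. Up to 25 unchanged genes were called too. The changed genes were drawn from the better expressed ones, with a spread estimated by edgeR. For distal GA3M2 the simulation gave 94.9%, while 0% of all genes were called in the data. The simulations therefore do not show that a member left uncalled was unchanged.

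Replicate numbers were taken to pair IL-17A and IL-1 cultures, since same-numbered libraries deviated together at 12 h (r = 0.854, 0.573 and 0.618) and at 72 h (0.588, 0.448 and 0.761). The 72 h libraries of replicate 2 differ in sex, female with IL-1 and male with IL-17A, so that number does not mark 1 animal. Controls of 72 h were not compared with those of 12 h, because 2 of the 3 columns of each time hold identical reads. Gene positions and exon lengths came from GENCODE M21, promoters from RefSeq, of which some are not reported here. Analyses ran in R 4.3.3 and Python 3.11.15.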

Additional observations from a re-analysis of the deposited data

Results flagged for a closer look

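Clca3b went opposite ways in the 2 sorts of the Alk3 knockout. Every GA3T stromal library was above both of its controls and every GA3M2 goblet library below both of its own. The difference of the log2 fold changes, stromal minus goblet, was 4.998 for the proximal and 3.64 for the distal colon. The difference itself was not tested. In the same stromal libraries the epithelial markers summed to 431 to 1009 RPM (reads per 1000000 of the library), against 13.1 to 496 in the controls, and their part in this difference was not tested. Reads of Clca3b per read of Epcam were 0.204 and 0.557 in distal GA3T and 0.307 and 0.170 in distal GWTT, which overlap. In the proximal colon they were 0.168 and 0.320 in GA3T and 0.0980 and 0.0473 in GWTT, without overlap.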

How the results depend on the processing

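Over all alternatives 1311 member values were recomputed, 132 moved and 0 reversed a call. Within the tables, 40 values changed sign, 11 of them values of at least 0.5 in size. Clca4b changed sign in 0 of 139 alternatives to its table values (0.44 to 5.61 in the goblet sort, 4.94 to 10.7 in the stromal sort, 1.13 to 4.31 in organoids), and Clca4a in 6, all in organoids. The counts of members called moved more. DESeq2 called 2 in proximal GA3M2 (1 in limma), 2 in distal GA3M2, 1 in proximal and 3 in distal GA3T, 2 with IL-1 and 1 with IL-17A at 12 h, and 2 with IL-17A at 72 h (0 in limma each). A pseudocount of 10 called 1 in distal GA3T, and edgeR called 0 in the contrast of distal GA3T with GS4T. With sex as a block, added after seeing the data, the counts were 2 in proximal and 1 in distal GS4M2, 2 in proximal and 3 in distal GA3M2, 5 in proximal GS4T, 2 in proximal and 1 in distal GA3T, and 1 for proximal GA3M2 against GS4M2. Counts over all genes with this block are not given here, so nothing is read from those of the members.

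With the replicate block 3 members were called in proximal GS4M2, 3 in proximal GA3M2, 2 in proximal and 2 in distal GA3T, 4 with IL-1 and 4 with IL-17A at 12 h, 0 with IL-1 at 72 h, 1 for proximal GA3M2 against GS4M2 and 2 for distal GA3T against GS4T. The block changed no call of a member between IL-17A and IL-1, where Clca4b at 12 h passed the adjusted p but not the fold. In the other comparisons no more than 2 numbers are shared and the labels do not say what a number marks. Same-numbered deviations had correlations of -0.166 to 0.650, highest at 12 h (0.628 to 0.650) and between GWTM2 segments (0.591), where same-numbered libraries were also of the same sex.

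Leaving out each library in turn gave 1 to 2 calls in proximal and 0 to 1 in distal GS4M2, 0 to 3 in proximal and 0 to 3 in distal GA3M2, 0 to 6 in proximal and 4 to 5 in distal GS4T, 0 to 2 in proximal and 0 to 3 in distal GA3T, 0 with either cytokine at 12 h, 0 to 2 with IL-1 and 0 to 1 with IL-17A at 72 h, 0 to 1 between GWTM2 segments, 0 to 3 for proximal GA3M2 against GS4M2 and 0 to 1 for distal GA3T against GS4T. The call in proximal GA3M2 was lost without its replicate 2, and proximal GS4T kept 0 without its replicate 1 and 1 without its replicate 2. Where this leaves 1 library in a group, it is assumed to vary like the others. The counts with a library left out also stand without those over all genes, and nothing is read from them. Over all genes DESeq2 called 270 in proximal (43 in limma) and 148 in distal GS4M2 (0), 431 in proximal (12) and 240 in distal GA3M2 (0), 966 in proximal (55) and 776 in distal GA3T (0), 43 with IL-1 (7) and 51 with IL-17A (5) at 12 h, and 2311 with IL-17A at 72 h (1038). In those tables the replicate block gave 260, 0, 699, 4, 253, 62, 100, 120 and 4, and with IL-1 at 72 h 1513 (2998). Between GWTM2 segments it gave 351 (221), for GA3M2 against GS4M2 289 (74) and 210 (86), and for proximal GA3T against GS4T 22 (14). A pseudocount of 10 gave 119 and 112 between GWTM2 and GWTT segments (221 and 225) and 194 for distal GA3T against GS4T (359). The cause of these shifts was not tested.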
